A study of Rattus norvegicus with 22 samples.

Results

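Expression of 36 cell cycle and DNA replication genes was followed in rat lung after pulmonary embolism (PE), 15 of them genes of S phase, when DNA is copied, 19 of mitosis or its preparation, and 2 encoding cyclins of G1 and of the step from G1 into S phase. The genes were taken by symbol, and each was read from the probeset annotated with that symbol alone, or from the brightest such probeset over all arrays where there were several. This left 34 of the 36, among 14217 genes of the array that could be read in this way: 13 S phase genes, all 19 mitosis genes and both cyclins. Rrm2, the small subunit of ribonucleotide reductase, was left out because both of its probesets were also annotated to another gene, and no probeset was named for Cdc6, which loads the replicative helicase. No filter on low values was applied, so all 34 entered every comparison.

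Male Sprague-Dawley rats received polystyrene microspheres through the right jugular vein, which lodge in pulmonary arteries and block them without the platelet activation and clotting of a thrombus. Rats were studied 18 h and 2 h after injection, and at each time there were 3 Vehicle rats (0.15 ml of 0.01% Tween 20 per 100 g, the carrier that every rat received), 4 Mild PE rats (1300000 microspheres per 100 g, in a smaller volume of carrier) and 4 Severe PE rats (2000000 per 100 g). Lungs were lavaged with 8 ml of saline before they were excised, and RNA of whole lung tissue from each of the 22 rats was hybridised to 1 Affymetrix Rat Genome 230 2.0 array. Values are log2 of the deposited probeset signal after a floor of 16 and quantile normalization, so a difference of 1 is a change of 2-fold, and levels of different probesets are not set against each other. Rats were separate animals, and the labels gave no batch, so a batch that moved with time or dose could not be looked for.

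Arrays were alike, with correlations between 0.941 and 0.985 over all probesets, and 13.6% to 17.3% of probesets at the floor. The tissue carried the surfactant markers of alveolar type II cells near the top of the scale. On 5 arrays the 3′ control probeset of Gapdh read over 0.3 above its 5′ partner, a sign of shorter RNA or cDNA: 18-h Severe PE rat 3 (0.32), 18-h Mild PE rat 4 (0.49), 18-h Vehicle rat 1 (0.64), 2-h Severe PE rat 1 (0.52) and 2-h Vehicle rat 3 (0.35). For beta-actin the same difference read 1.04 in 18-h Severe PE rat 3, no higher than in 18-h Mild PE rat 3 (1.06), which was kept. The others of the 5 read 1.19 to 1.52, above every array that was kept. Counts and medians without these 5 arrays are given beside the comparisons they change most. In whole lung RNA, fewer cycling cells and less RNA per cycling cell cannot be told apart.

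Cells that enter the cycle first raise cyclin D and cyclin E, whose kinases inactivate the retinoblastoma proteins and release the E2F factors. E2F factors then switch on the S phase genes: the Mcm2 to Mcm7 subunits of the helicase that unwinds DNA, the sliding clamp Pcna, the primase Prim1, the flap nuclease Fen1, and the nucleotide enzymes Rrm1, Tyms and Tk1. Mitosis genes come later, through 2 elements of their promoters. These are the CCAAT box and the cell cycle homology region (CHR), of which the CHR is bound by the DREAM and MYB complexes. Most cells of an adult lung are not cycling. Both waves of genes are therefore commonly read as marks of the small cycling share of a tissue, the first of cells that copy DNA and the second of cells that divide.

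Promoters of 6 genes are printed, each called in at least 1 comparison below: Mcm5, Mcm6 and Mcm7 from S phase and Cdk1, Prc1 and Nusap1 from mitosis. Those of other called genes, such as Pcna and Fen1, are not printed. Each is 300 bases of RefSeq sequence on rat build GRCr8, from 250 bases before to 50 after the start of the gene, read 5′ to 3′ on the strand of the gene. Capitals mark matches on either strand to the E2F site (TTTCCCGC, TTTCGCGC, TTTGCCGC or TTTGGCGC), the CCAAT box (CCAAT, which reads ATTGG when it lies on the other strand) and the CHR (TTTGAA). The Mcm5 promoter lies at chr19:13488563-13488862 on the plus strand, Mcm6 at chr13:42404303-42404602 on the minus strand and Mcm7 at chr12:22163129-22163428 on the minus strand. The Cdk1 promoter lies at chr20:19265043-19265342, Prc1 at chr1:143659231-143659530 and Nusap1 at chr3:127057045-127057344, all on the plus strand.
Mcm5: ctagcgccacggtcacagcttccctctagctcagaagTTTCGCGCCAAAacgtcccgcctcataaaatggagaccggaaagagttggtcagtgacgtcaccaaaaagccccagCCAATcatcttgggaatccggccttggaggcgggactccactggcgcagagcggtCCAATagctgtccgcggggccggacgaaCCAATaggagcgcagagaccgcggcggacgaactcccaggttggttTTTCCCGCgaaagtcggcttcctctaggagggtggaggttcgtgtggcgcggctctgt
Mcm6: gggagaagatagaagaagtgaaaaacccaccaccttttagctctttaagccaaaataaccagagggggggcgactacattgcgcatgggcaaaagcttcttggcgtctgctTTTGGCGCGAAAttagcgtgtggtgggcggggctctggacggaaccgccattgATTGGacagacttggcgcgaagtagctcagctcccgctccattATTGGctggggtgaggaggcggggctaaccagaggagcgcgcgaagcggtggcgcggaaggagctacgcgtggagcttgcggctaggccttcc
Mcm7: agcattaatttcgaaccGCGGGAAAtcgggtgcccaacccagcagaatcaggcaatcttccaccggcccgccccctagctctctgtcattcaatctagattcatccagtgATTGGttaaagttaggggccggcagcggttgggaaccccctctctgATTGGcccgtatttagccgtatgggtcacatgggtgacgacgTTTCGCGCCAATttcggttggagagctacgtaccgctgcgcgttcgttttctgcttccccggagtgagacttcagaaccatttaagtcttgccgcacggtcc
Cdk1: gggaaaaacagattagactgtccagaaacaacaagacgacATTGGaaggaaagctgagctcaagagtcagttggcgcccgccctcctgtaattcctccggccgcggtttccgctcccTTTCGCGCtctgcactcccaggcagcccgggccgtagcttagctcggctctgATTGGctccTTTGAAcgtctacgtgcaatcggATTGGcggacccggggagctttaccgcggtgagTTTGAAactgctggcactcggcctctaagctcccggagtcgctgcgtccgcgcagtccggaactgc
Prc1: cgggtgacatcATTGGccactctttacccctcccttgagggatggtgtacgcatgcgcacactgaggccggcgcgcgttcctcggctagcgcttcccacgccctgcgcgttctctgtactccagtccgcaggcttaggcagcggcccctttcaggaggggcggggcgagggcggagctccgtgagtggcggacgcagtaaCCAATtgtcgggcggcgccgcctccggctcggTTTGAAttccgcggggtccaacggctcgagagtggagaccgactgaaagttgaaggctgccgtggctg
Nusap1: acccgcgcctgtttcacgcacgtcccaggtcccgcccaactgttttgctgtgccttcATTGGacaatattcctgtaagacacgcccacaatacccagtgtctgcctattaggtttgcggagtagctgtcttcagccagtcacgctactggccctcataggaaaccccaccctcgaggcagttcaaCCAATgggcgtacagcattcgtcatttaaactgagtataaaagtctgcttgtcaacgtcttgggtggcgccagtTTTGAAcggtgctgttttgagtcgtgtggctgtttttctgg
The Mcm5 and Mcm6 promoters each hold a run in which an E2F match on one strand overlaps another on the other strand, and in Mcm7 an E2F match overlaps a CCAAT match. Neither Prc1 nor Nusap1 holds an E2F match, and both hold a CHR close to the start, at position -18 in Prc1 and 9 in Nusap1. A RefSeq promoter was given for 29 of the 36 genes, the exceptions being Mcm4, Rrm2, Cdc6, Ccna2, Aurkb, Ube2c and Ccnd1. An E2F match stood in 7 of 12 S phase promoters and 1 of 16 mitosis promoters (Cdk1), against 2.14% of all 33469 rat promoters. A CHR match stood in 11 of 16 mitosis promoters and 1 of 12 S phase promoters (Mcm2), against 18.3% of all promoters, and a CCAAT match in 13 of 16 and 8 of 12, against 37.5%. The Ccne1 promoter held none of the 3 motifs, and the Pcna and Fen1 promoters held no E2F match. These are matches to letters in a fixed window and were not tested for binding.

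At 18 h, 4 of the 13 S phase genes and cyclin E1 were higher in Severe PE lungs than in Vehicle lungs, and none of the 19 mitosis genes was called. Mcm4, Mcm5, Mcm6, Pcna and Ccne1 rose, by 1.56-fold to 2.58-fold, and none of the 34 genes fell (limma, adjusted p under 0.05 after Benjamini-Hochberg correction over all 31042 probesets, with at least 1.5-fold change). The same rule called 3.21% of all probesets higher and 7.13% in either direction. Of the 13 S phase genes 12 had a positive difference, with a median of 0.50 on the log2 scale where the median over all probesets was 0, and 6 had an unadjusted p under 0.05 in that direction (12.1% of all probesets). Of the 19 mitosis genes 10 had a positive and 9 a negative difference, with a median of 0.03. Limma called 0 of these 19 (1 at unadjusted p under 0.05, Top2a), and so did the methods' t-test, run probeset by probeset at the same threshold.

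**Figure D1:**
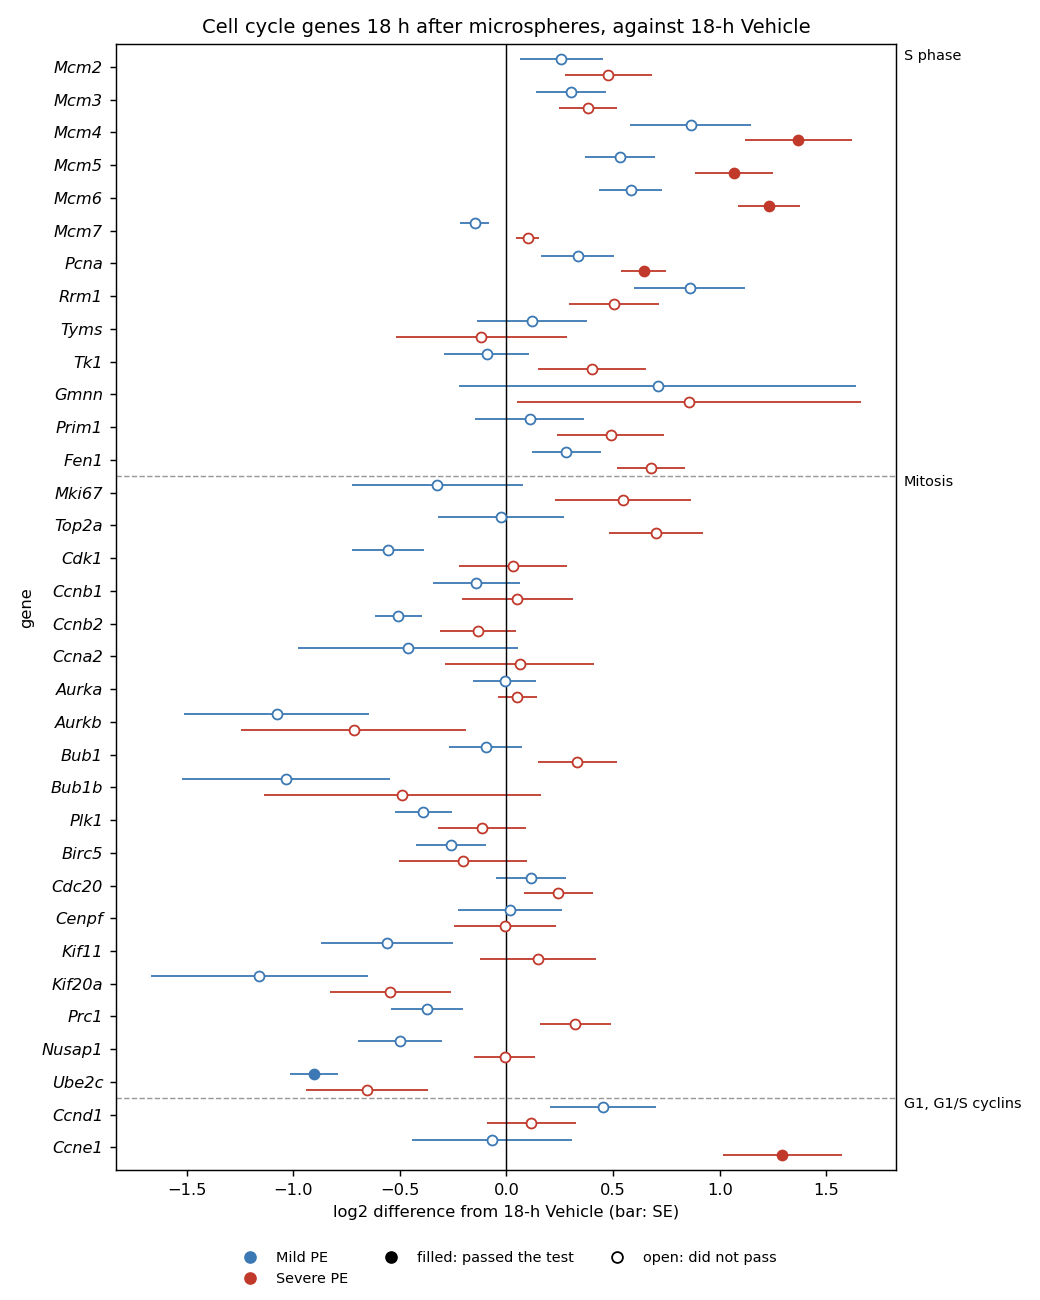
Log2 differences from 18-h Vehicle of the 34 genes in Mild PE (blue) and Severe PE (red) at 18 h, with genes grouped down the page as S phase, mitosis and G1 or G1/S cyclins, bars for 1 standard error, and filled points for genes that passed the test. Severe PE points lie to the right of 0 for 12 of 13 S phase genes, and Mild PE points to its left for 17 of 19 mitosis genes.

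The helicase subunits carried the clearest differences. Mcm6 (probeset 1371074_a_at) read 9.28, 9.79, 9.58 and 9.27 in the 4 18-h Severe PE rats, against 8.22, 8.25 and 8.29 in the 3 18-h Vehicle rats. The Severe PE rats all stood well above the Vehicle rats, which lay close together, and the difference was 1.23 (SE 0.15, 2.34-fold, limma adjusted p = 0.0115). Mcm5 (1376055_at) read 9.49, 9.0, 9.21 and 8.79 in Severe PE rats and 8.07, 8.22 and 7.88 in Vehicle rats. No Severe PE rat overlapped the Vehicle rats, and the difference was 1.07 (SE 0.18, 2.09-fold, limma adjusted p = 0.0261). Mcm4 (1373557_at) was the most scattered of these subunits, at 8.43, 7.95, 8.68 and 7.84 in Severe PE rats and 6.95, 6.55 and 7.07 in Vehicle rats. The groups did not overlap here either, and the difference was 1.37 (SE 0.25, 2.58-fold, limma adjusted p = 0.0297). The other subunits did not pass the test. Mcm2 differed by 0.48 (SE 0.20, limma adjusted p = 0.217) and Mcm7 by 0.10 (SE 0.05, limma adjusted p = 0.316), and Mcm3 read 8.88 to 9.30 in Severe PE rats and 8.50 to 8.88 in Vehicle rats.

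**Figure D2:**
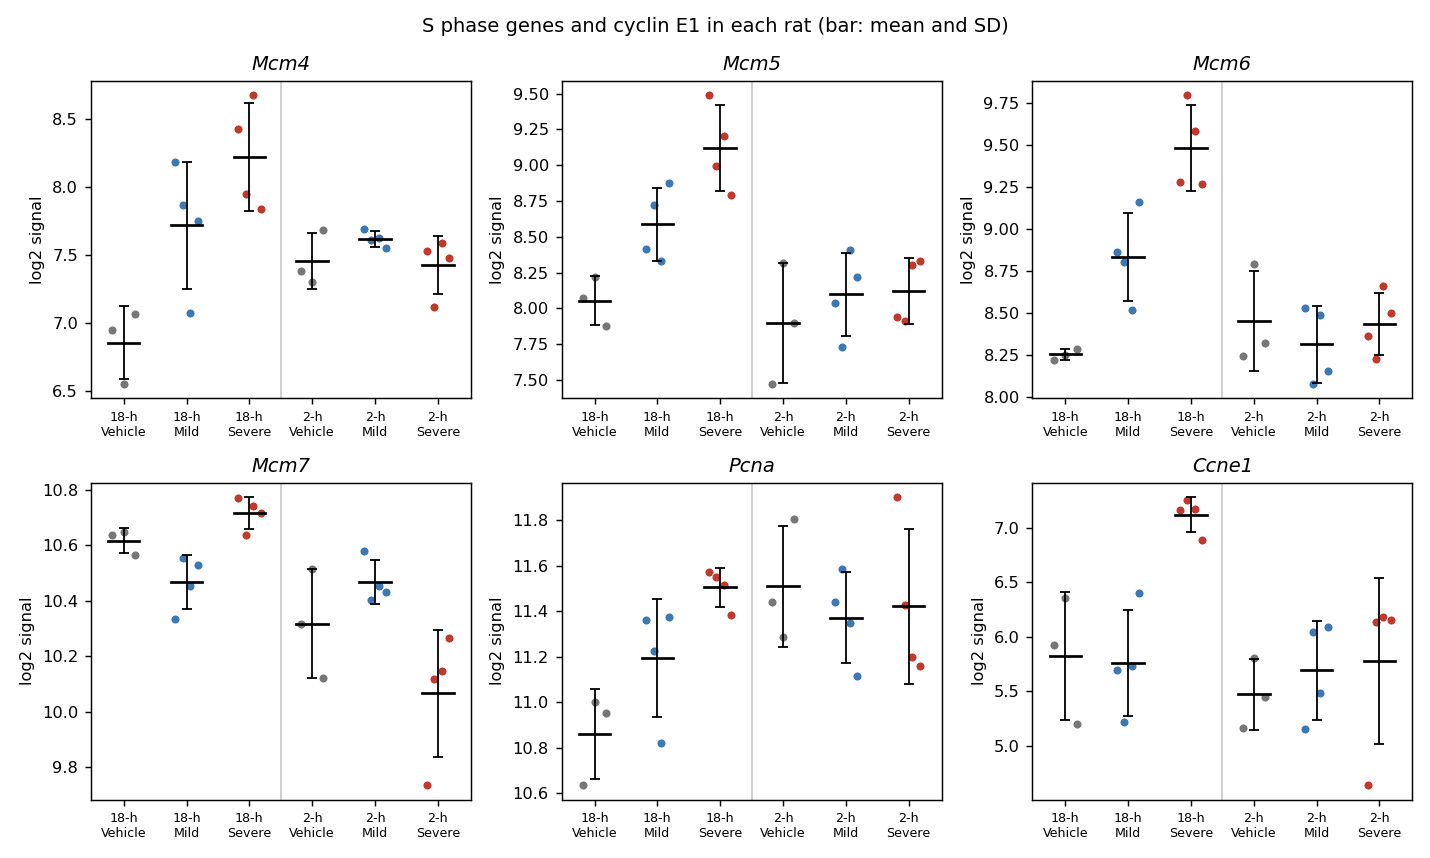
Log2 signal of Mcm4, Mcm5, Mcm6, Mcm7, Pcna and Ccne1 in each rat, with 18-h Vehicle, Mild PE and Severe PE to the left of the 2-h groups, points for rats and bars for the group mean and SD. The 18-h Severe PE rats of Mcm6 sit between 9.27 and 9.79, above every other rat, while Pcna in 18-h Severe PE rats (mean 11.51) stands where it stood in 2-h Vehicle rats (mean 11.51).

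Pcna, the clamp that holds the polymerases on DNA, read 11.57, 11.55, 11.52 and 11.38 in 18-h Severe PE rats, against 10.63, 11 and 10.95 in 18-h Vehicle rats. Its difference of 0.64 (SE 0.11, 1.56-fold, limma adjusted p = 0.0238) came with a Vehicle group that was itself lower at 18 h than at 2 h, by a difference of -0.65 (SE 0.18, limma adjusted p = 0.249), without overlap. Cyclin E1 (Ccne1), which drives entry into S phase, read 7.16, 7.25, 7.17 and 6.88 in Severe PE rats and 5.92, 6.36 and 5.20 in Vehicle rats. The Severe PE rats were close together and the Vehicle rats spread over more than 1 unit, and the difference was 1.29 (SE 0.28, 2.45-fold, limma adjusted p = 0.0446). Fen1, which trims the lagging strand, missed the threshold at 0.68 (SE 0.16, limma adjusted p = 0.0562), although all 4 Severe PE rats (8.25 to 8.62) stood above the 3 Vehicle rats (7.47 to 8.06). Of the 34 genes 7, Mcm4, Mcm5, Mcm6, Pcna, Fen1, Top2a and Ccne1, had every Severe PE rat above every Vehicle rat, against 11.2% of all probesets. A dimmer probeset of Top2a had a difference of -0.14 in this comparison.

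The calls in this comparison depended on the arrays. Leaving out 1 rat at a time left between 1 and 4 of the 5 calls, with Mcm6 alone called without Vehicle rat 1, Vehicle rat 3, Severe PE rat 2 or Severe PE rat 3, and Mcm5 and Mcm6 without Severe PE rat 1. Without the 5 arrays short of 5′ signal limma called 0 of the 34 genes, with fewer rats in both groups. The differences were 1.26 for Mcm4, 1.04 for Mcm5, 1.18 for Mcm6, 0.52 for Pcna and 1.32 for Ccne1, with limma adjusted p between 0.0848 and 0.194. The S phase median was then 0.52, with 11 of 13 genes positive, and the mitosis median -0.18, with 8 of 19 positive.

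In 18-h Mild PE lungs 1 gene differed from Vehicle lungs. Ube2c, the ubiquitin-conjugating enzyme of the anaphase-promoting complex, fell (limma, 1 of 34 genes called, against 0.528% of all probesets lower and 1.03% in either direction). It read 7.83, 7.95, 7.87 and 7.88 in Mild PE rats, against 8.76, 9.02 and 8.56 in Vehicle rats. The Mild PE rats lay close together and below every Vehicle rat, and the difference was -0.90 (SE 0.11, 1.87-fold lower, limma adjusted p = 0.0376). This call was lost when any single rat but Vehicle rat 3 was left out, and without the 5 arrays short of 5′ signal, where the difference was -0.90 (limma adjusted p = 0.147). In 18-h Severe PE rats Ube2c read 7.47 to 8.61, with a mean of 8.13 against 8.78 in Vehicle rats, and was not called. Of the 19 mitosis genes 17 had a negative difference, with a median of -0.39, and 6 had an unadjusted p under 0.05, all lower (9.93% of all probesets). Cdk1, the mitotic kinase, differed by -0.55 (SE 0.17, limma adjusted p = 0.160), Nusap1, which binds spindle microtubules, by -0.50 (SE 0.20, limma adjusted p = 0.257) and Prc1, which bundles the central spindle, by -0.37 (SE 0.17, limma adjusted p = 0.312). Mcm7, Cdk1, Ccnb2, Aurkb, Kif20a and Ube2c had every Mild PE rat below every Vehicle rat, against 8.81% of all probesets.

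**Figure D3:**
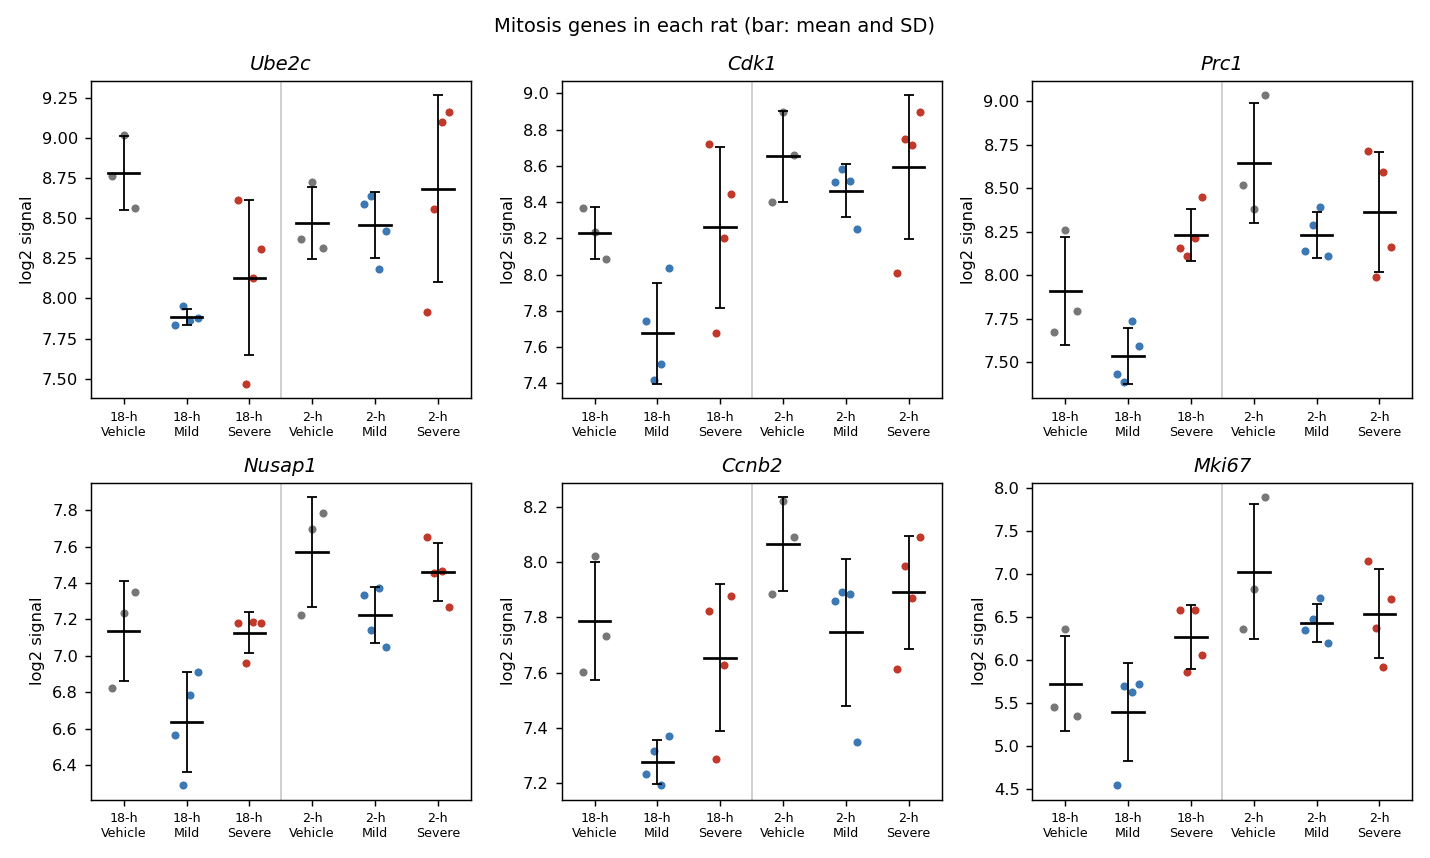
Log2 signal of Ube2c, Cdk1, Prc1, Nusap1, Ccnb2 and Mki67 in each rat, with 18-h Vehicle, Mild PE and Severe PE to the left of the 2-h groups, points for rats and bars for the group mean and SD. The 18-h Mild PE rats have the lowest group mean for Ube2c (7.83 to 7.95) and Prc1 (7.38 to 7.74). The lowest single Ube2c value is that of an 18-h Severe PE rat (7.47).

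S phase genes in the same Mild PE lungs had mostly positive differences, without a call. Of the 13 genes 11 were positive, with a median of 0.30, and limma called 0 (4 at unadjusted p under 0.05: Mcm4, Mcm5, Mcm6 and Rrm1, all higher, against 8.74% of all probesets), as did the methods' t-test. In the same 4 genes every Mild PE rat stood above every Vehicle rat, against 7.79% of all probesets. The S phase median was 0.16, with 8 of 13 genes positive, without the 5 arrays short of 5′ signal. Mcm6 read 8.86, 8.80, 8.52 and 9.16 in Mild PE rats, all above the 3 Vehicle rats, and differed by 0.58 (SE 0.15, limma adjusted p = 0.118). Mcm4 read 8.18, 7.87, 7.08 and 7.75, with rat 3 barely above the highest Vehicle rat (7.07), and differed by 0.86 (SE 0.28, limma adjusted p = 0.186). Rrm1, the large subunit of ribonucleotide reductase, read 9.06, 9.21, 8.53 and 8.58 in Mild PE rats and 7.71, 7.82 and 8.43 in Vehicle rats, a difference of 0.86 (SE 0.26, limma adjusted p = 0.158). Rrm1 was higher at the mild dose than at the severe one, where it differed from Vehicle by 0.50 (SE 0.21, limma adjusted p = 0.210), though the difference between doses did not pass the test (-0.36, SE 0.19, limma adjusted p = 0.476). These comparisons use the same 3 Vehicle arrays as those of Severe PE. Rat 3 was the lowest of the 4 Mild PE rats in 10 of the 13 S phase genes.

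Set directly against each other at 18 h, Severe PE and Mild PE lungs gave no call by limma for the 34 genes or for any of the 31042 probesets (0%), and none of the 34 by the methods' t-test. At unadjusted p under 0.05 there were 13 of the 34, all higher in Severe PE, against 6.65% of all probesets. The mitosis genes were shifted most evenly, with 18 of 19 positive and a median of 0.43, beside 11 of 13 positive and a median of 0.31 for S phase genes. Prc1 read 8.15, 8.11, 8.21 and 8.45 in Severe PE rats, against 7.43, 7.38, 7.74 and 7.59 in Mild PE rats, a difference of 0.70 without overlap (SE 0.11, limma adjusted p = 0.100). Nusap1 read 7.18, 6.96, 7.19 and 7.18 in Severe PE rats and 6.56, 6.29, 6.79 and 6.91 in Mild PE rats (0.49, SE 0.14, limma adjusted p = 0.207). Mki67, the proliferation antigen, read 6.58, 5.86, 6.58 and 6.05 in Severe PE rats, against 4.55, 5.70, 5.63 and 5.72 in Mild PE rats (0.87, SE 0.32, limma adjusted p = 0.292). Kif11, the motor that separates spindle poles, differed by 0.71 (SE 0.16, limma adjusted p = 0.150) and Ccne1 by 1.36 (SE 0.24, limma adjusted p = 0.110). Every Severe PE rat stood above every Mild PE rat in 9 genes, Mcm6, Mcm7, Pcna, Mki67, Top2a, Kif11, Prc1, Nusap1 and Ccne1, against 3.81% of all probesets.

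Averaged over the genes of a phase, each as a difference from its own mean over all 22 arrays, the S phase mean at 18 h was -0.28 ± 0.17 in Vehicle rats, 0.08 ± 0.26 in Mild PE rats and 0.34 ± 0.06 in Severe PE rats (SD, n = 3, 4 and 4). The 4 Severe PE rats (0.28 to 0.42) were close together and above all Vehicle rats (-0.48 to -0.18), and the Mild PE rats (-0.28 to 0.30) spanned the gap. The mitosis mean at 18 h was 0.00 ± 0.20 in Vehicle rats, -0.43 ± 0.24 in Mild PE rats and -0.02 ± 0.20 in Severe PE rats. The order of the doses thus differed between the phases, with Mild PE between the others for S phase and lowest for mitosis. At 2 h the S phase means lay closer, at -0.07 ± 0.05, -0.04 ± 0.09 and -0.13 ± 0.06 for Vehicle, Mild PE and Severe PE, and the mitosis means were 0.31 ± 0.16, 0.06 ± 0.14 and 0.16 ± 0.10. Over the 6 groups 18-h Severe PE had the highest mean in 9 of 13 S phase genes, 18-h Mild PE had the lowest in 13 of 19 mitosis genes, and 2-h Vehicle had the highest in 12 of 19.

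**Figure D4:**
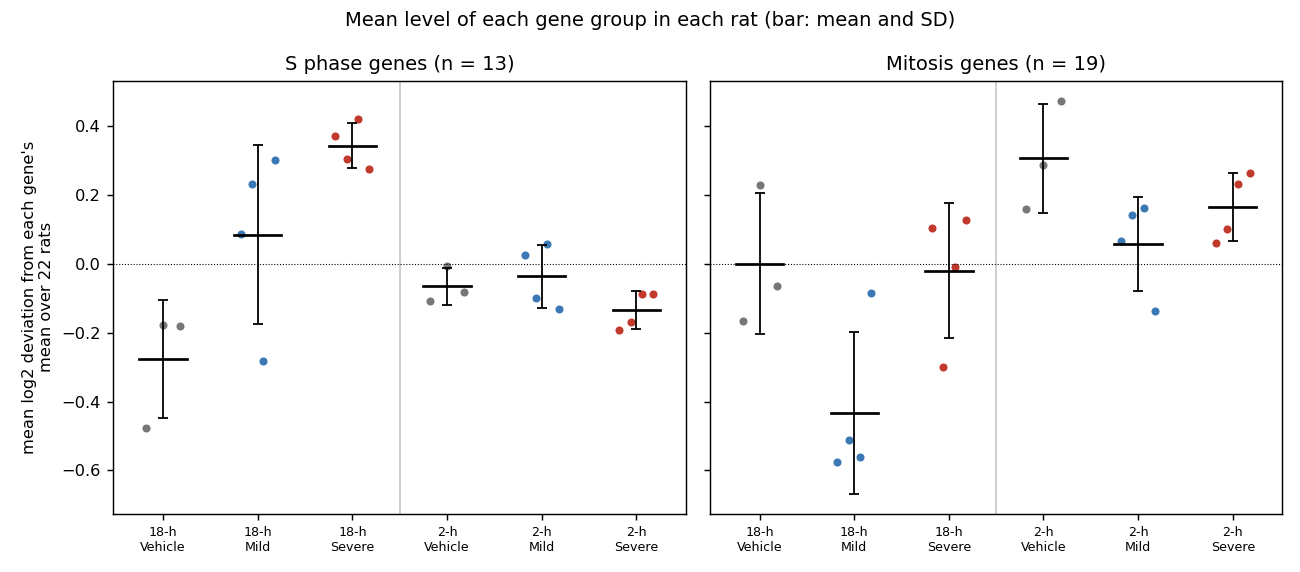
Mean over the S phase genes and over the mitosis genes of the log2 signal less the gene's own mean over all arrays, for each rat, with 18-h Vehicle, Mild PE and Severe PE to the left of the 2-h groups, points for rats and bars for the group mean and SD. S phase means at 18 h run from -0.28 in Vehicle through 0.08 in Mild PE to 0.34 in Severe PE, while mitosis means are lowest in Mild PE (-0.43).

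Single rats stood out within the groups. Mild PE rat 4 at 18 h, 1 of the arrays short of 5′ signal, was the highest of its group in 15 of the 19 mitosis genes. Severe PE rat 2 at 18 h was the lowest of its group in 11 of 19, and its Bub1b, a checkpoint kinase, lay at the floor. Without the 5 arrays short of 5′ signal the mitosis median in Mild PE against Vehicle was -0.58, with 18 of 19 genes negative.

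Between 2 h and 18 h after Severe PE 3 of the 6 helicase subunits and the flap nuclease rose. Mcm5, Mcm6, Mcm7 and Fen1 were called higher at 18 h than at 2 h (limma, 4 of 34 genes, against 3.31% of all probesets higher and 6.3% in either direction). Mcm6 read 8.36, 8.23, 8.66 and 8.50 in the 2-h Severe PE rats, below all 4 of the 18-h rats given above, and the difference of 18 h from 2 h was 1.04 (SE 0.15, limma adjusted p = 0.0114). Mcm5 differed by 1.0 (SE 0.18, limma adjusted p = 0.0214), with 2-h Severe PE rats at 7.94, 7.91, 8.31 and 8.33. Mcm7 read 10.77, 10.63, 10.74 and 10.71 in 18-h Severe PE rats, against 9.73, 10.12, 10.15 and 10.26 in 2-h Severe PE rats, a difference of 0.65 (SE 0.12, limma adjusted p = 0.0210). In this gene the 2-h Severe PE rats were low while Vehicle rats at 18 h (10.56 to 10.65) already stood near the 18-h Severe PE level. Fen1 read 8.62, 8.44, 8.46 and 8.25 in 18-h Severe PE rats and 7.23, 7.48, 7.85 and 7.91 in 2-h Severe PE rats (0.82, SE 0.17, limma adjusted p = 0.0317). Of the 13 S phase genes 11 were higher at 18 h, with a median of 0.56, and Mcm2, Mcm4, Mcm5, Mcm6, Mcm7, Fen1 and Ccne1 did not overlap between times, against 8.91% of all probesets. Limma called 0 of the 19 mitosis genes (1 at unadjusted p under 0.05, Nusap1, lower, against 11.1% of all probesets), and the methods' t-test called 0. Without 1 rat at a time between 1 and 4 of the 34 genes were called, with Mcm6 alone when 2-h Severe PE rat 2 or 18-h Severe PE rat 2 or 3 was left out, and Mcm5 and Mcm6 without 18-h Severe PE rat 1 or 4. Without the 5 arrays short of 5′ signal 1 gene was called, Ccne1, and Mcm6 differed by 0.98 (limma adjusted p = 0.0635).

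Between 2 h and 18 h after Mild PE 2 mitosis genes fell. Their share of the 34 was close to that of all probesets called in either direction and above that called lower. These were Cdk1 and Prc1 (limma, 2 of 34 genes, against 2.96% of all probesets lower and 5.45% in either direction). Cdk1 read 7.74, 7.42, 7.5 and 8.03 in 18-h Mild PE rats, against 8.51, 8.58, 8.52 and 8.25 in 2-h Mild PE rats, a difference of -0.79 (SE 0.15, 1.73-fold lower, limma adjusted p = 0.0215). Prc1 read 8.14, 8.29, 8.39 and 8.11 in 2-h Mild PE rats, above all 4 of the 18-h Mild PE rats, and differed by -0.70 (SE 0.10, 1.62-fold lower, limma adjusted p = 0.00965). Prc1 kept this call without any single rat of the 8, whereas Cdk1 lost it without 2-h Mild PE rat 1, 2 or 3. Without 2-h Mild PE rat 4, 18-h Mild PE rat 1 or 18-h Mild PE rat 4, 4 genes were called. Ube2c differed by -0.58 (SE 0.10, limma adjusted p = 0.0179), just under the limit on fold. Of the 19 mitosis genes 16 were lower at 18 h, with a median of -0.51, and 12 had an unadjusted p under 0.05, all lower, against 12.8% of all probesets. Mki67, Top2a, Cdk1, Plk1, Cenpf, Kif11, Prc1, Nusap1 and Ube2c did not overlap between times, all lower at 18 h, against 9.24% of all probesets. Without the 5 arrays short of 5′ signal Cdk1, Ccna2, Prc1 and Nusap1 were called, all lower. Limma called 0 of the 13 S phase genes here (4 at unadjusted p under 0.05, all higher, against 12.9% of all probesets), as did the methods' t-test.

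**Figure D5:**
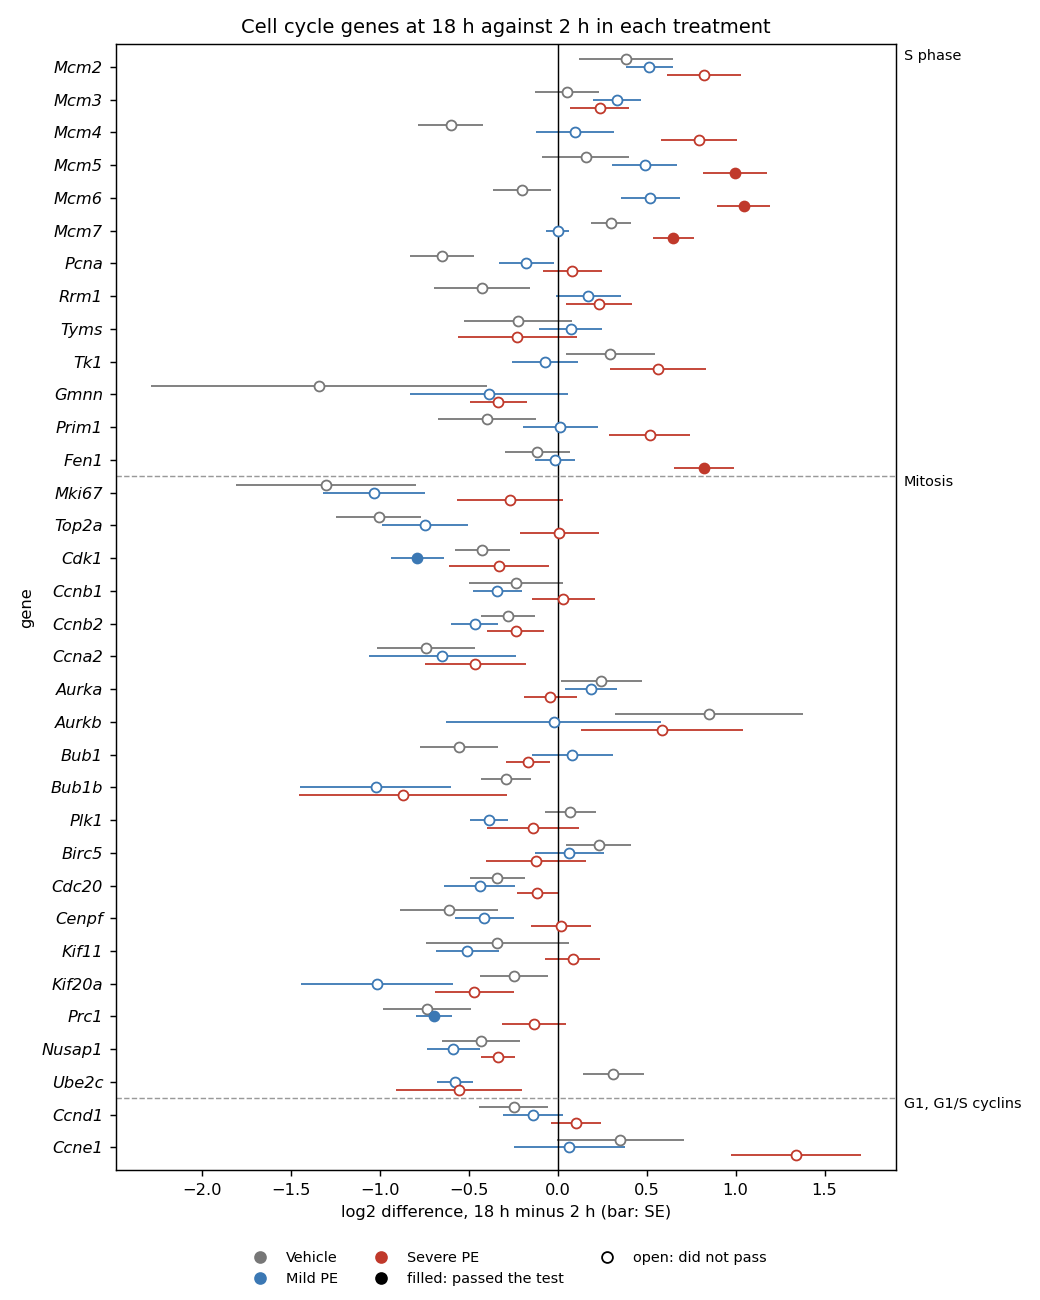
Log2 differences of 18 h from 2 h for the 34 genes in Vehicle (grey), Mild PE (blue) and Severe PE (red) rats, with genes grouped down the page as S phase, mitosis and G1 or G1/S cyclins, bars for 1 standard error, and filled points for genes that passed the test. Filled points are Cdk1 and Prc1, left of 0 in Mild PE, and Mcm5, Mcm6, Mcm7 and Fen1, right of 0 in Severe PE.

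Vehicle rats also had lower levels of most mitosis genes at 18 h, without a call. Limma called 0 of the 34 genes (7 at unadjusted p under 0.05), as did the methods' t-test, against 0.0161% of all probesets called and 15.5% at unadjusted p under 0.05. Of the 19 mitosis genes 14 were lower at 18 h than at 2 h, with a median of -0.34. Top2a, the topoisomerase that untangles chromosomes, read 6.12, 6.75 and 6.56 in 18-h Vehicle rats, against 7.13, 7.58 and 7.72 in 2-h Vehicle rats (-1.0, SE 0.24, limma adjusted p = 0.230). Mki67 differed by -1.30 (SE 0.51, limma adjusted p = 0.326) and Prc1 by -0.74 (SE 0.25, limma adjusted p = 0.291). Mcm4, Pcna, Mki67, Top2a, Cdk1, Ccna2, Bub1 and Prc1 had every 18-h Vehicle rat below every 2-h Vehicle rat, against 9.93% of all probesets. The S phase median was -0.20, with 8 of 13 genes lower at 18 h. The mitosis median was -0.18 and the S phase median -0.06 when the 5 arrays short of 5′ signal were left out.

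At 2 h itself no gene was called in any comparison of the doses. Limma called 0 of 34 in Mild PE against Vehicle (4 at unadjusted p under 0.05, against 0.332% of all probesets called), 0 in Severe PE against Vehicle (2, against 0.0226%) and 0 in Severe PE against Mild PE (5, against 0.438%), and the methods' t-test called 0 in each. At unadjusted p under 0.05 these comparisons held 13.2%, 7.67% and 12.3% of all probesets. The S phase medians of these comparisons were 0.13, -0.09 and -0.09, and the mitosis medians -0.29, -0.17 and 0.13. In Mild PE against Vehicle 16 of the 19 mitosis genes were lower, and in Severe PE against Vehicle 13. Without the 5 arrays short of 5′ signal the S phase medians were 0.01, -0.06 and -0.003 and the mitosis medians -0.18, -0.06 and 0.17. The gene nearest a call was cyclin D1 (Ccnd1), the growth factor sensor of G1, which read 12.21, 12.47, 12.58 and 12.54 in 2-h Severe PE rats, against 12.96, 13, 13.11 and 13.02 in 2-h Mild PE rats. The groups were wholly apart, as in 4.05% of all probesets in this direction, with a difference of -0.58 (SE 0.09, limma adjusted p = 0.0548), and the 2-h Vehicle rats (12.58, 12.76 and 12.70) lay between them. At 18 h Mild PE rats again had the highest mean, but the groups overlapped, at 12.11 to 12.80 in Vehicle rats, 12.36 to 13.11 in Mild PE rats and 12.22 to 12.76 in Severe PE rats. Bub1, a spindle checkpoint kinase, read 5.46, 5.30, 5.55 and 6.30 in 2-h Mild PE rats and 6.24, 6.22 and 6.71 in 2-h Vehicle rats (-0.73, SE 0.28, limma adjusted p = 0.350).

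In the 2-way model over all 22 arrays, which asks of each gene whether time, dose or their interaction matters, 12 of the 34 genes passed for time (17.6% of all probesets), 6 for dose (9.93%) and 4 for the interaction (3.62%). The 1.5-fold limit was set here on the range of the 6 group means, over both times and all doses. A gene called for dose therefore need not differ 1.5-fold between doses at either time, and Nusap1 and Ccnd1 did not. Time took 4 S phase genes, Mcm2, Mcm5, Mcm6 and Mcm7, and 8 mitosis genes, Mki67, Top2a, Cdk1, Ccnb2, Ccna2, Kif20a, Prc1 and Nusap1. Mcm7 had the smallest adjusted p (limma, 0.00103), followed by Prc1 (0.00167) and Nusap1 (0.00178). Dose took Mcm6 (limma adjusted p = 0.00833), Mcm5 (0.0243), Mcm4 (0.0253), Bub1 (0.0265), Ccnd1 (0.0289) and Nusap1 (0.0300). Ccnb2, the cyclin partner of Cdk1, Prc1 and Rrm1 stood just outside, at limma adjusted p of 0.0504, 0.0512 and 0.0519. Kif20a and Kif11, motors of the spindle, did not pass for dose (0.106 and 0.142), nor did Mcm3 (0.271) or Ccnb1 (0.907), a cyclin of mitosis that read 6.73 to 7.68 over all rats. The interaction took S phase genes, Mcm6 (limma adjusted p = 0.0190), Mcm7 (0.0307), Fen1 (0.0333) and Mcm4 (0.0445), and none of the 19 mitosis genes (2 at unadjusted p under 0.05, against 18.1% of all probesets). When the 5 arrays short of 5′ signal were left out, 9 genes passed for time, with Mcm7, Ccnb2 and Kif20a lost, and 7 for dose. Mcm4 (limma adjusted p = 0.0799) and Mcm5 (0.0956) then lost the call for dose, as did Ccnd1 on fold, and Rrm1, Ccna2, Kif20a and Ccne1 gained it. For the interaction 0 then passed (limma, adjusted p of 0.0341 for Mcm7, which fell under the limit on fold, and 0.0844 for Mcm6). Leaving out single rats gave 10 to 14 genes for time, 3 to 10 for dose and 1 to 4 for the interaction.

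The difference of Severe PE from Vehicle was itself larger at 18 h than at 2 h for Mcm4, by 1.39 (SE 0.32, limma adjusted p = 0.0152), Mcm6, by 1.24 (SE 0.24, limma adjusted p = 0.00586) and Fen1, by 0.94 (SE 0.23, limma adjusted p = 0.0231). These 3 of 34 genes stand beside 2.49% of all probesets higher and 5.73% in either direction. The S phase median of this contrast was 0.73, with 12 of 13 genes positive, and the mitosis median 0.10, with 12 of 19 positive. In Mcm4 the 18-h Vehicle rats were all below the 2-h Vehicle rats, with a difference of -0.60 (SE 0.18, limma adjusted p = 0.269). Without the 5 arrays short of 5′ signal Mcm6 alone was called, at 1.23 (limma adjusted p = 0.0359), and the mitosis median was -0.12, with 7 of 19 positive. The same contrast for Mild PE gave 0 calls by limma (4 at unadjusted p under 0.05, against 0.744% of all probesets called and 13.7% at that p), with medians of 0.33 for S phase and -0.15 for mitosis genes. Those medians were 0.15 and -0.42 without the 5 arrays short of 5′ signal.

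Other probesets of a gene gave a different call in some cases. A dimmer probeset of Tk1, thymidine kinase, rose in 18-h Severe PE against Vehicle (0.70, limma adjusted p = 0.0365), where the brightest differed by 0.40 (limma adjusted p = 0.407). A dimmer probeset of Top2a fell between 2 h and 18 h in Mild PE (-0.79, limma adjusted p = 0.0379) and in Severe PE (-0.95, limma adjusted p = 0.0233), where the brightest differed by -0.74 (limma adjusted p = 0.106) and 0.01. In 18-h Severe PE against Vehicle this dimmer probeset differed by -0.14 (limma adjusted p = 0.916), where the brightest differed by 0.70 (limma adjusted p = 0.114). Gmnn, the inhibitor of helicase loading, lay at the floor in 18-h Vehicle rat 1, and Bub1b on 2 arrays, so their differences hold no order at that end. A dimmer probeset of Cdc20 passed for time in the 2-way model (limma adjusted p = 0.0469). For dose in that model a dimmer probeset of Nusap1 did not pass (limma adjusted p = 0.173). Neither did the dimmer probesets of Ccnd1 (limma adjusted p = 0.377, and 0.0141 but under the limit on fold). The brightest probesets of Tyms, Prim1, Aurka, Birc5 and Cdc20 passed in none of the comparisons.

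Genes of the same pathways outside the 36 were read in the same way. Of 46 measured S phase genes of a further list of 50, 35 had a positive difference in 18-h Severe PE against Vehicle, with a median of 0.40, and 3 were called, all higher, beside 3.21% of all probesets higher and 7.13% in either direction. Ung, which removes uracil from DNA, read 9.72, 9.74, 9.80 and 9.74 in Severe PE rats, against 8.50, 8.76 and 8.42 in Vehicle rats (1.19, SE 0.09, limma adjusted p = 0.0052). Rpa3, a subunit of the single-strand binding protein, differed by 0.82 (SE 0.12, limma adjusted p = 0.0182) and Uhrf1, which carries DNA methylation through replication, by 1.66 (SE 0.26, limma adjusted p = 0.0205). Of 48 measured mitosis genes of a further list of 58, 5 were called, Cks1b, Arhgap11a, Cenpk and Cenpn higher and Stmn1 lower, with a median of 0.03, beside the same 7.13%. Cks1b, a subunit of the cyclin-dependent kinases, read 9.32, 9.41, 9.54 and 9.78 in Severe PE rats and 7.71, 8.16 and 7.87 in Vehicle rats (1.60, SE 0.15, limma adjusted p = 0.00796). In 18-h Mild PE against Vehicle 1 of these 48 was called, beside 1.03% of all probesets: Racgap1, a partner of the central spindle, at 7.84 to 7.98 in Mild PE rats and 8.56 to 8.86 in Vehicle rats (-0.75, SE 0.09, limma adjusted p = 0.0339). Between 2 h and 18 h after Mild PE 9 of the 48 fell, Cenpw, Kif15, Kif23, Racgap1, Ect2, Cks2, Knstrn, Depdc1 and Stmn1, with 37 of 48 lower and a median of -0.43, beside 2.96% of all probesets called lower. Of these, Cks2 fell from a 2-h Mild PE mean of 10.16 that stood above 2-h Vehicle (8.92). Its 18-h Mild PE mean was 9.04, against 8.73 in 18-h Vehicle.

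Among regulators of cell cycle entry 1 of 22 and, among inhibitors, 3 of 25 measured genes were called in 18-h Severe PE against Vehicle, beside 7.13% of all probesets. Of the 22 measured genes of G1 entry and the E2F family Myc alone passed, at 10.49, 10.91, 10.33 and 10.25 in Severe PE rats and 9.41, 8.82 and 9.36 in Vehicle rats (1.30, SE 0.22, limma adjusted p = 0.0252). At 2 h Myc stood at 10.24 to 10.88 in Severe PE rats and 8.58 to 9.17 in Vehicle rats, a comparison in which limma called 0 of the 22 genes (2 at unadjusted p under 0.05, smallest adjusted p 0.135). E2f4 (0.55, limma adjusted p = 0.0340) and E2f5 (0.53, limma adjusted p = 0.0379) were under the limit on fold, and Cdk4, the partner of cyclin D, differed by 0.47 (limma adjusted p = 0.0699). Of 25 measured inhibitors and growth arrest genes Btg3 (0.83, limma adjusted p = 0.00701) and Gadd45g (1.20, limma adjusted p = 0.0104) rose, and Cdkn1c, the inhibitor p57, fell (-0.84, limma adjusted p = 0.0193). Rbl1, the retinoblastoma relative p107, differed by 1.25 (limma adjusted p = 0.0638). Between the doses at 2 h, Cdkn1b of the inhibitors (-0.90, limma adjusted p = 0.0113) and Lin52 of the G1 entry genes (-0.71, limma adjusted p = 0.0208) were called. Both were lower in Severe PE than in Mild PE, beside 0.438% of all probesets called in either direction.

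Markers of other cell types differed between the same groups. The summed signal of 5 of 5 T cell markers was 2945 to 5010 in 18-h Severe PE rats and 3519 to 6447 in 18-h Mild PE rats, against 6646 to 8211 in 18-h Vehicle rats, with Cd3g and Lck called lower in Severe PE. That of 2 measured of 4 B cell markers was 688 to 1223 in 18-h Severe PE rats and 728 to 1653 in 18-h Mild PE rats, against 1830 to 2267 in 18-h Vehicle rats, with Cd79b called lower in Severe PE. The 18-h Vehicle rats stood apart here, since B cell sums at 2 h were 613 to 927 in Severe PE rats, 634 to 854 in Mild PE rats and 706 to 1134 in Vehicle rats. T cell sums at 2 h were 3153 to 5319 in Severe PE rats, 4315 to 5521 in Mild PE rats and 3089 to 7345 in Vehicle rats. Neutrophil markers (5 of 6 measured) summed to 19366 to 37695 in 18-h Severe PE rats and 13226 to 25425 in 18-h Vehicle rats, with a median difference of 0.88 and 0 called by limma (2 at unadjusted p under 0.05). Between 2 h and 18 h their median difference was 1.11 in Vehicle rats (0 called by limma, 3 at unadjusted p under 0.05), 0.84 in Mild PE rats (2 called) and 1.74 in Severe PE rats (3 called, beside 3.31% of all probesets higher). In 18-h Severe PE against Vehicle all 4 alveolar type I markers (median -0.49) and all 4 measured of 5 endothelial markers (median -0.52) had a negative difference, with Vwf called lower. Cd14, of 7 measured macrophage and monocyte markers, and Lamp3, of 4 alveolar type II markers, were called higher. The macrophage and monocyte sums were 37888 to 41731 in 18-h Severe PE rats and 34997 to 37866 in 18-h Vehicle rats. Those of alveolar type II markers were 83727 to 87725 and 75613 to 83927. That comparison called 3.21% of all probesets higher and 3.91% lower. The part of these cell types in the differences of the cell cycle genes was not tested.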

How the data were processed

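RNA of whole lung tissue from 22 rats was measured on 1 array each. The authors deposited a linear intensity for each of 31099 probesets, scaled so that every array has nearly the same trimmed mean, by software not given in the sources used here. They are not the GC-RMA values that the study's methods describe. Intensities under 16 were set to 16, log2 was taken and arrays were quantile normalized, after which medians no longer differ (6.84 to 7.18 before). In R 4.3.3 with limma 3.58.1, each pair of groups was fitted on its own arrays, and a 2-way model of time and dose on all 22. P-values were Benjamini-Hochberg adjusted over 31042 probesets, with 57 controls left out. A call needed an adjusted p under 0.05 and 1.5-fold, taken in the 2-way model as the range of the group means. Groups came from GEO's labels, whose replicates are separate rats, and numbers shared between groups were not taken as pairs. Array number limits the precision.

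Of the probesets, 20826 had 1 gene symbol, 436 several and 9780 none. Members and gene lists were chosen with earlier results of these data known. Genes described in full are the 8 of each phase with the smallest adjusted p for dose, and Mki67, Top2a, Cdk1, Ccnb1, Mcm2, Mcm5, Pcna, Ccnd1 and Ccne1. Rrm2 was chosen too but could not be read. From each other list up to 4 genes with the smallest adjusted p in 18-h Severe PE against Vehicle are named, and other genes are named because they passed a test. Alternatives were other normalizations, a floor of 64, the mean of a gene's probesets, only the brighter probesets, no fold limit, 1 fit on all arrays, a trend in the variance, the methods' t-test, a replicate block, and leaving out each array or the 5 short of 5′ signal. The fits were tested on simulated data.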

Additional observations from a re-analysis of the deposited data

Results flagged for a closer look

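In 9 of 136 gene and group combinations with 4 rats, 1 rat lay far from the others relative to the spread of its group, where chance gives about 1 in 20. In 18-h Severe PE it was rat 2 in each case: Bub1b at 4 (the floor, others 6.17 to 6.55), Cdc20, the activator of the anaphase-promoting complex, at 8.04 (others 8.41 to 8.47) and Nusap1 at 6.96 (others 7.18 to 7.19). In 18-h Mild PE, Mki67 was 4.55 in rat 1 (others 5.63 to 5.72), Cenpf, a kinetochore protein, 6.22 in rat 2 (others 6.73 to 6.78) and Ccnd1 12.36 in rat 4 (others 13.02 to 13.11). In 2-h Severe PE, rat 1 stood low for Aurkb, a mitotic kinase, at 8.04 (others 8.62 to 8.74) and for Ccne1 at 4.64 (others 6.14 to 6.19). In 2-h Mild PE, Ccnb2 was 7.35 in rat 4 (others 7.86 to 7.89). The Ccnd1, Aurkb and Ccne1 values come from arrays short of 5′ signal, whose part in them was not tested.

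For 3 genes the effect of Severe PE differed between the times by a test of that difference in limma, at 1.39 for Mcm4, 1.24 for Mcm6 and 0.94 for Fen1 on the log2 scale, each larger at 18 h than at 2 h.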

How the results depend on the processing

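Over the 37 calls of single genes and 967 recomputed values, 776 kept their direction and call, 191 lost the call and 0 changed direction. The causes of lost calls were not tested except where fewer arrays entered. Calls of the 2-way model rest on a range of group means, which has no sign, so they could not change direction. With no fold limit the same fits were read by a looser rule, so no call could be lost there. The 1 call of 18-h Mild PE against Vehicle became 0 with median centring, a floor of 64, the methods' t-test, the replicate block and without the 5 arrays short of 5′ signal, and 4 in 1 fit on all arrays. The 5 of 18-h Severe PE against Vehicle became 3 with the methods' t-test and 0 without the 5 arrays short of 5′ signal. Between times, Mild PE (2) gave 4 with no normalization, with the mean of a gene's probesets and without the 5 arrays short of 5′ signal, Severe PE (4) gave 7 in 1 fit on all arrays and with the mean of probesets and 1 without the 5 arrays short of 5′ signal, and Vehicle (0) gave 2, Top2a and Prc1, in 1 fit on all arrays. Without those arrays the interaction (4) gave 0 and the Severe PE effect at 18 h less that at 2 h (3) gave 1. With the replicate block 18-h Severe PE against Vehicle and both PE doses between times gave 0 and the interaction 1 (Mcm6). Replicate numbers showed no pairing of rats over all probesets. Deviations of arrays with the same number correlated at -0.273 to 0.123 over 31 pairs, and arrays matched best with their own number in 11 of 62 cases. Pairing in only part of the genes was not tested. The brighter probesets alone (15521) left out 12 of the genes, which lay in the dimmer part of the array. These were Tyms, Gmnn, Mki67, Top2a, Ccna2, Bub1, Bub1b, Birc5, Cenpf, Kif11, Kif20a and Ccne1. Leaving out 1 array gave 0 to 1 for 18-h Mild PE against Vehicle, 1 to 4 for 18-h Severe PE against Vehicle, 0 to 1 for Severe PE against Mild PE at 18 h (Ccne1 without Mild PE rat 4) and at 2 h (Bub1 without Mild PE rat 4), 1 to 4 between times for Mild PE and for Severe PE, 10 to 14 for time, 3 to 10 for dose (3 without 2-h Mild PE rat 2 or 18-h Mild PE rat 1 or 2, and 10 without 18-h Mild PE rat 4), 1 to 4 for the interaction (Mcm6 alone without 18-h Severe PE rat 1 or 3, and 2 without 2-h Vehicle rat 1 or 2, 2-h Mild PE rat 1, 2 or 3, 2-h Severe PE rat 2 or 18-h Vehicle rat 1) and 2 to 5 for the Severe PE effect at 18 h less that at 2 h (2 without 2-h Vehicle rat 2 or 18-h Vehicle rat 1, and 5 without 2-h Severe PE rat 1). Mcm6 kept its call without each of the 7 arrays of 18-h Severe PE and Vehicle (limma adjusted p 0.0231 to 0.0400). Genes near the floor, such as Gmnn and Bub1b, are measured least surely.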
